A study of Bos taurus with 10 samples.

Results

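The 7 genes described here encode proteins of blood plasma and relatives of such proteins: the carriers RBP4, TF and APOA1, the serpins SERPING1, SERPINA3-3 and LOC338050, and complement C4A. They were taken by current gene symbol from the named genes of a bovine cDNA microarray and are 7 of 4366 named genes. All 7 had a value on all 10 arrays, as did 4307 named genes in all, and each of the 7 was represented by 1 printed element (a cDNA clone spotted side by side with its duplicate). The series measured liver, mammary gland, and subcutaneous, mesenteric and omental adipose tissue of lactating cattle (Bos taurus), all at peak lactation. The labels name neither breed, age nor any treatment, and do not say how many cows gave tissue. RNA of each tissue was hybridised against a standard made by mixing tissues, on 1 array with the tissue in Cy3 and on 1 with the tissue in Cy5. Both arrays of a tissue are counted together as 1 sample, and without further samples the spread between cows is unknown and no test was run.

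Hepatocytes secrete most of the protein of blood plasma. RBP4 carries retinol from liver stores to tissues, TF (transferrin) carries iron to cells through the transferrin receptor, and APOA1 is the main protein of high-density lipoprotein. Serpins are inhibitors that trap a protease by a change of shape. SERPING1 (C1 inhibitor) blocks the proteases C1r and C1s, which start the classical complement pathway by cutting C4 and C2. RBP4 is also made by adipocytes, and C4 and C1 inhibitor are also made by macrophages and stromal cells.

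Values are log2 ratios of tissue over reference, with the median of each array set to 0. Which dye stands on top of the ratio is not said in the labels. The 2 arrays of a tissue correlated at -0.78 to -0.66 over spots and arrays of 1 dye orientation at 0.23 to 0.79, so the dyes stand in the same order on all arrays, whichever it is. Cy5 over Cy3 was taken as likely from marker genes: under this direction all 8 measured hepatocyte markers of a list without any of the 7 genes were higher in liver than in mammary gland (median 4.25), and all 9 measured milk secretion markers were lower (median -3.09). With the opposite direction every difference below changes sign. Gene names rest on a print layout rebuilt from the agreement of clones of the same gene, and since the 7 genes have 1 element each, none entered that search and none can be checked against another clone. Agreement was lowest on the source plate that holds SERPING1 (median cosine 0.33 between clones), against 0.48 for the plate of RBP4, 0.58 for that of APOA1 and 0.81 for the best plate. A tissue difference is called past the size rule where it reached 1 log2 unit (2-fold) with the same sign in both dye orientations, and ± is the distance of either orientation from their mean. In bulk tissue, fewer cells of a type and less RNA per cell cannot be told apart.

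The subcutaneous sample stood apart from the other depots in its markers. Of 17 measured macrophage markers 16 were higher there than in the mean of mesenteric and omental adipose tissue, with a median level of 2.72 (range 0.71 to 6.63) against 0.18 in mesenteric and 0.67 in omental adipose tissue. Of 7 measured adipocyte markers 4 were lower, with a median level of -0.24 against 1.45 in mesenteric and 1.63 in omental adipose tissue. For comparisons with the mean of the 3 depots, the values of the 7 genes and the calls of listed genes that end or appear without this sample are given beside them.

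RBP4 was highest in liver, intermediate in the visceral depots, and lowest in mammary gland. On the arrays with the tissue in Cy3 and in Cy5, in that order, it stood at 2.59 and 6.50 in liver, -4.70 and -1.49 in mammary gland, -3.54 and 0.33 in subcutaneous, -1.35 and 2.71 in mesenteric and -0.77 and 3.42 in omental adipose tissue. Within either orientation the order of the 5 tissues was the same: liver, omental, mesenteric, subcutaneous, mammary gland. Each step in that order had the same sign in both orientations, and the smallest was from omental to mesenteric adipose tissue (0.65 ± 0.06). Liver stood 3.22 ± 0.14 log2 units (9.29-fold) above omental adipose tissue, the next tissue in order. Subcutaneous adipose tissue in turn stood 1.49 ± 0.33 above mammary gland.

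**Figure D1:**
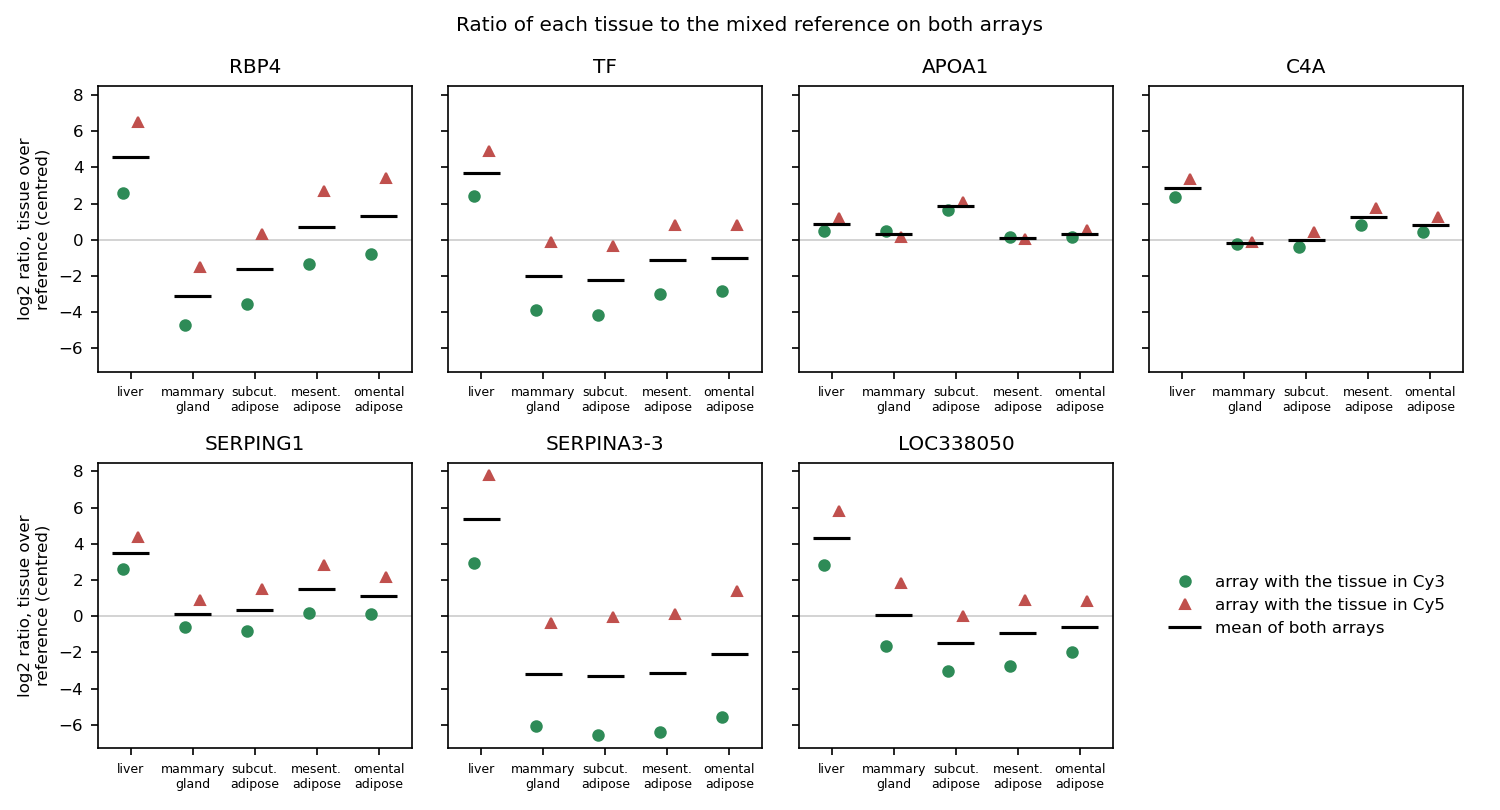
Log2 ratio of tissue over the mixed reference (vertical axis, centred on each array's median) for the 7 genes in 5 tissues. Circles are arrays with the tissue in Cy3, triangles arrays with the tissue in Cy5 and bars their mean. In 6 of the 7 panels liver is highest in both orientations, and in the APOA1 panel subcutaneous adipose tissue is highest.

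TF was high in liver and low in the 4 other tissues. It stood at 2.43 and 4.91 in liver, -3.86 and -0.11 in mammary gland, -4.14 and -0.36 in subcutaneous, -2.98 and 0.79 in mesenteric and -2.84 and 0.82 in omental adipose tissue. Liver lay above every other tissue in both orientations without overlap. The 4 other tissues lay within 1.24 log2 units of each other in the mean, and omental and mesenteric adipose tissue were 0.08 ± 0.06 apart. The duplicate spots of TF on the liver array with the tissue in Cy5 differed by 0.75, against a median gap of 0.08 over the 70 pairs of spots of the 7 genes and 0.11 over all elements.

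APOA1, a product of liver and small intestine in mammals, did not follow the other plasma carriers. It stood at 0.48 and 1.22 in liver, 0.47 and 0.17 in mammary gland, 1.65 and 2.08 in subcutaneous, 0.16 and 0.05 in mesenteric and 0.14 and 0.53 in omental adipose tissue. Subcutaneous adipose tissue was highest in both orientations, 1.01 ± 0.15 log2 units (2.01-fold) above liver. Omental adipose tissue and mammary gland did not differ beyond the gap between orientations (0.02 ± 0.35). Liver was second in both orientations, by 0.02 over mammary gland with the tissue in Cy3. All 5 tissues lay above 0, the median of their arrays, in both orientations. Whether the element carries the right name was not tested. Its duplicate spots differed by 0.45 to 0.60 on the mesenteric, liver and omental arrays with the tissue in Cy3.

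SERPINA3-3 belongs to the bovine family of genes related to human antichymotrypsin. It stood at 2.94 and 7.78 in liver, -6.08 and -0.35 in mammary gland, -6.58 and -0.03 in subcutaneous, -6.39 and 0.12 in mesenteric and -5.60 and 1.37 in omental adipose tissue. Liver was far above the other tissues in both orientations, and omental adipose tissue came second. Mesenteric stood 0.17 ± 0.03 above subcutaneous adipose tissue, with the same sign in both orientations. The place of mammary gland beside these depots was not fixed. Its differences of 0.08 ± 0.39 from mesenteric and 0.09 ± 0.42 from subcutaneous adipose tissue changed sign with the orientation. On the 4 arrays of non-liver tissue in Cy3 its ratio lay below that of every other named gene. The duplicate spots of SERPINA3-3 on the mammary gland array with the tissue in Cy5 differed by 0.96, the largest gap among the 7 genes. The gene table lists 4 genes with the symbol SERPINA3 or a numbered form of it, and a cDNA element may bind transcripts of several of them.

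LOC338050 is listed with the older name PCI, and the tables used here give no full name. In the gene order of assembly ARS-UCD2.0 1 protein-coding gene lies between it and SERPINA3-3. It stood at 2.84 and 5.81 in liver, -1.65 and 1.83 in mammary gland, -3.03 and 0.01 in subcutaneous, -2.77 and 0.89 in mesenteric and -1.97 and 0.82 in omental adipose tissue. Liver was highest and mammary gland second in both orientations. Omental and mesenteric adipose tissue did not differ beyond the gap between orientations (0.36 ± 0.43).

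SERPING1 and C4A ran side by side. SERPING1 stood at 2.60 and 4.36 in liver, -0.59 and 0.89 in mammary gland, -0.79 and 1.51 in subcutaneous, 0.18 and 2.82 in mesenteric and 0.12 and 2.15 in omental adipose tissue. C4A stood at 2.37 and 3.36 in liver, -0.26 and -0.11 in mammary gland, -0.39 and 0.41 in subcutaneous, 0.81 and 1.76 in mesenteric and 0.42 and 1.24 in omental adipose tissue. Both genes had the order liver, mesenteric, omental, subcutaneous, mammary gland in the mean of the orientations. The last step was not fixed for either, at 0.20 ± 0.33 for C4A and 0.21 ± 0.42 for SERPING1. Over the 5 tissue means the 2 genes had a Pearson correlation of 0.996, a description over 5 points that share arrays and a reference.

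The gap between dye orientations was large for most of the 7 genes. After the sign was turned, the value with the tissue in Cy5 exceeded that with the tissue in Cy3 by a mean of 6.12 log2 units for SERPINA3-3, 3.85 for RBP4, 3.49 for TF, 3.19 for LOC338050 and 2.04 for SERPING1. These 5 gaps were larger in size than those of at least 99.4% of named genes, while C4A (0.74) exceeded 96.0% and APOA1 (0.23) 56.3%. In liver, the 6 genes other than APOA1 lay between 2.37 and 2.94 with the tissue in Cy3, and between 3.36 and 7.78 with the tissue in Cy5. A gap shared by all arrays of 1 orientation cancels in a difference between tissues. The gaps were only partly shared. Over the tissues they ranged from 4.8 to 7.0 for SERPINA3-3 and from 2.5 to 3.8 for TF, with the smallest in liver for both. The part that is not shared enters the ± of a difference. Signal over background is unknown here, so a low ratio may stand for a spot near background.

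**Figure D2:**
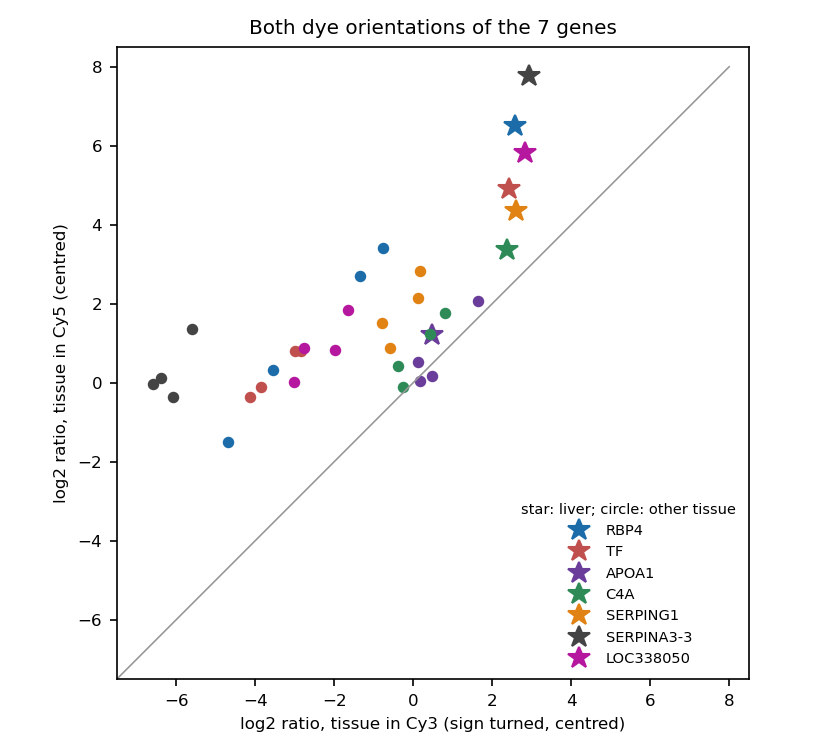
Log2 ratio of the 7 genes with the tissue in Cy3 (horizontal axis, sign turned) against the tissue in Cy5 (vertical axis), both centred. Stars are liver, circles the other tissues, and the line marks equal values. APOA1 in mammary gland and in mesenteric adipose tissue lies below the line and all other points above it, and the liver stars of 6 genes fall between 2.37 and 2.94 on the horizontal axis and between 3.36 and 7.78 on the vertical axis.

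Liver, the organ that supplies plasma proteins, was first compared with mammary gland, the organ that secretes milk. SERPINA3-3 averaged 5.36 in liver and -3.22 in mammary gland, a difference of 8.58 ± 0.45 log2 units (382-fold) that ranked highest of 4325 genes compared. RBP4 had rank 4 at 7.64 ± 0.35, TF rank 9 at 5.66 ± 0.64 and LOC338050 stood at 4.23 ± 0.26 (18.8-fold). SERPING1 (3.33 ± 0.14) and C4A (3.05 ± 0.43) differed by 10.1-fold and 8.28-fold. APOA1 averaged 0.85 in liver and 0.32 in mammary gland, a difference of 0.53 ± 0.52 with 0.02 in 1 orientation and 1.05 in the other, and did not pass.

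In total 6 of 7 genes were higher in liver, where 9.34% of all genes compared were higher by the same rule and 13.8% passed it in either direction. No member was lower, against 4.44% of all genes. The median of the 7 was 4.23 against -0.01 over all genes, and 23 of 4325 genes lay at or above that value. Of all genes 404 were higher and 192 lower, and without centring 303 and 301. Before the signs are turned, the mean of both arrays holds the dye effect in place of the tissue difference, and in that contrast 36 genes passed the rule.

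**Figure D3:**
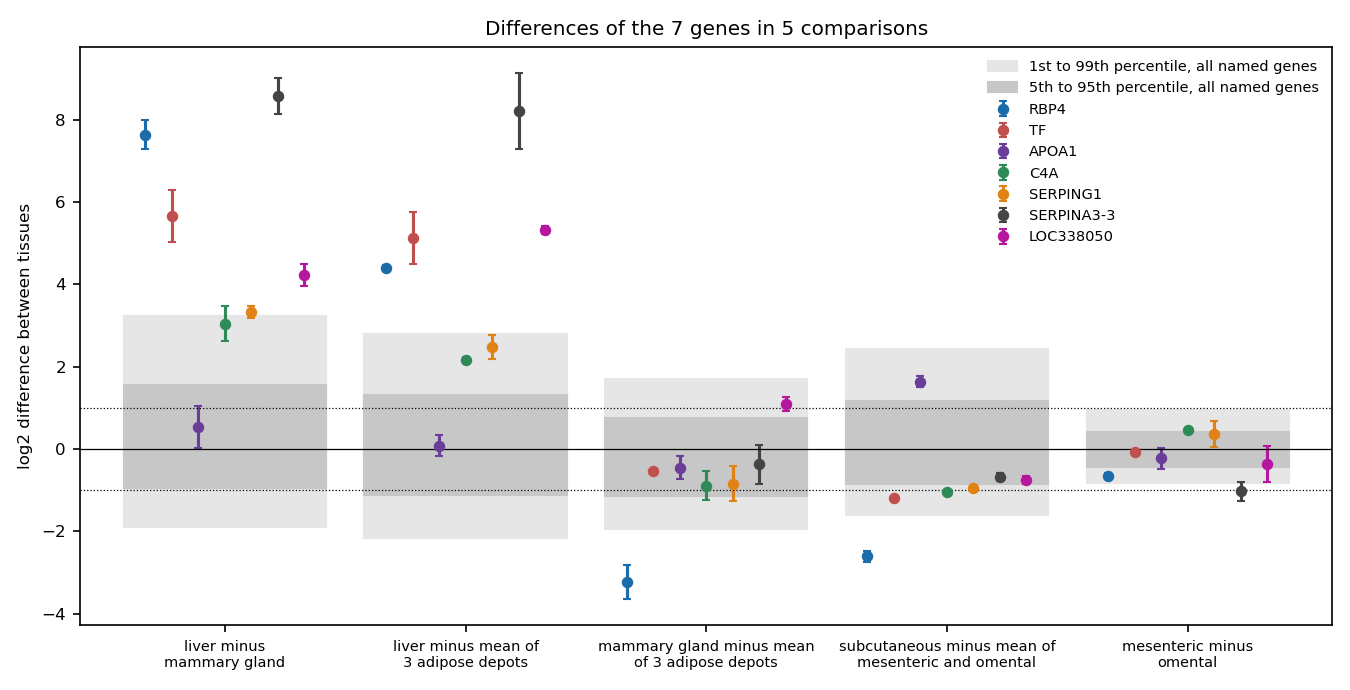
Log2 difference between tissues (vertical axis) of the 7 genes in 5 comparisons, with bars spanning the 2 dye orientations. Dark and light grey boxes span the central 90% and 98% of all named genes and dotted lines mark the size rule. SERPINA3-3 reaches 8.58 and 8.21 in the comparisons of liver, and RBP4 falls to -3.23 in mammary gland against adipose tissue.

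Liver was next set against adipose tissue, taken as the mean of its 3 depots. This comparison shares the liver sample with the first, so the 2 are not independent. SERPINA3-3 was again highest, at 8.21 ± 0.92 log2 units (296-fold) among 4326 genes, followed by LOC338050 at 5.33 ± 0.10 (40.2-fold) and TF at 5.12 ± 0.63 (34.8-fold). RBP4 stood at 4.41 ± 0.06 (21.3-fold), which is 3.23 log2 units less than against mammary gland. SERPING1 stood at 2.48 ± 0.29 and C4A at 2.16 ± 0.07, the smallest differences that passed. APOA1 averaged 0.85 in liver and differed from the adipose mean by 0.08 ± 0.25, with opposite signs in the orientations. When the adipose mean was taken over the visceral depots alone, RBP4 stood at 3.54, C4A at 1.81 and APOA1 at 0.63, and the same 6 genes passed.

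In total 6 of 7 genes were higher in liver and 0 lower, where 7.28% of all genes were higher and 6.06% lower (13.3% in all). Those shares come from 315 and 262 genes, against 232 and 435 without centring, which moved the median of all genes from -0.06 to -0.32. The median of the 7 genes was 4.41, and 11 of 4326 genes lay at or above it. Of other cell types' markers, 9 of 10 for fibroblasts and matrix and 11 of 17 for macrophages were lower in liver. So were 3 of 7 for adipocytes. Higher in liver were 1 fibroblast and matrix marker, 1 macrophage marker and 0 adipocyte markers. Without the subcutaneous sample 9 of 10, 4 of 17 and 4 of 7 markers of these cell types were lower, in that order. Their part in the differences was not tested.

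Mammary gland was then set against the same adipose mean. RBP4 was lower in mammary gland by the size rule, with a mean level of -3.09 in mammary gland and a difference of -3.23 ± 0.41 log2 units, rank 7 from the lowest of 4313 genes. LOC338050 was higher at 1.10 ± 0.16 (2.14-fold). The other 5 did not pass: C4A stood at -0.89 ± 0.36, SERPING1 at -0.85 ± 0.43, TF at -0.53 ± 0.01, APOA1 at -0.45 ± 0.27 and SERPINA3-3 at -0.37 ± 0.48. The counts of 1 higher and 1 lower of 7 stand beside 2.88% higher and 6.72% lower of all genes (9.6% in all). Lower in mammary gland were 13 of 17 macrophage markers, 9 of 10 fibroblast and matrix markers and 3 of 7 adipocyte markers. Of these lists 1 marker, SPP1 of the macrophage list, was higher (2.98 ± 0.20). Without the subcutaneous sample 6 of 17, 9 of 10 and 5 of 7 markers of these cell types were lower, in that order. Their part was not tested. The split of all genes was 124 to 290, and 154 to 219 after quantile normalisation. LOC338050 fell below the rule at 0.85 without subcutaneous adipose tissue in the mean, and at 0.94 on the arrays with the tissue in Cy3. Without subcutaneous adipose tissue RBP4 stood at -4.09, and C4A (-1.24) and SERPING1 (-1.17) passed as lower.

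Among the depots, subcutaneous adipose tissue was set against visceral adipose tissue, the mean of the mesenteric and omental samples. RBP4 was lower in the subcutaneous sample, at -1.60 against 0.68 in mesenteric and 1.33 in omental adipose tissue, a difference of -2.61 ± 0.13 log2 units with rank 7 from the lowest of 4332. TF (-1.20 ± 0.03) and C4A (-1.04 ± 0.04) were also lower. APOA1 was higher at 1.64 ± 0.14 (3.12-fold). SERPING1 (-0.96 ± 0.02), LOC338050 (-0.75 ± 0.10) and SERPINA3-3 (-0.68 ± 0.09) did not pass.

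In total 1 gene was higher and 3 lower, where 6.23% of all genes were higher and 3.72% lower (9.95% in all). The calls of TF and C4A rest on the centring: without it the median of all genes stood at 0.64, TF at -0.57, C4A at -0.42, RBP4 at -1.98 and APOA1 at 2.27, and the split of all genes was 858 to 40 in place of 270 to 161. The quantile-normalised values were -0.96 for TF and -1.08 for SERPING1, and SERPING1 stood at -1.12 without the omental array whose dye labels conflict. In the same comparison 16 of 17 macrophage markers were higher and none lower, and 4 of 7 adipocyte markers were lower and none higher. Their part in the differences was not tested.

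The last comparison set mesenteric against omental adipose tissue. SERPINA3-3 was lower in mesenteric adipose tissue, with -3.14 in mesenteric and -2.11 in omental adipose tissue, a difference of -1.02 ± 0.23 log2 units. The other 6 genes did not pass and ranged from -0.65 ± 0.06 for RBP4 to 0.45 ± 0.07 for C4A. The 1 lower gene stands beside 0.576% lower and 0.829% higher of all genes (1.41% in all), with 28 genes past the rule in the dye contrast against 36 higher and 25 lower here. Without centring that split was 19 to 74. The call ended at -0.79 on the arrays with the tissue in Cy3 alone and at -0.66 after quantile normalisation. Of 9 listed mesothelial markers only 3 keratins were measured, with 1 higher (KRT19, 1.72 ± 0.32) and 0 lower in mesenteric adipose tissue. KRT19 is also on the list of milk secretion markers, so these keratins are not specific to mesothelium.

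Genes of a complement list were set beside C4A and SERPING1. Besides C4A, 10 of 44 listed genes were measured, and 8 were higher in liver than in mammary gland (median 2.69). C1R and C1S, the proteases that SERPING1 blocks, stood at 4.64 ± 0.00 and 4.61 ± 0.16 log2 units (24.9-fold and 24.4-fold). C2, which the C1 complex cuts together with C4, stood at 3.98 ± 0.04, and C1QB, a chain of the recognition protein C1q, at 3.07 ± 0.21. Against the adipose mean 6 of 10 were higher in liver and 1 lower (median 1.11), with C1R at 3.11 ± 0.38, C1S 7.98-fold higher, C2 at 2.54 ± 0.16 and CD59, which blocks the final membrane pore, at 3.19 ± 0.03. ITGB2, a leukocyte integrin chain, was lower in liver at -1.09 ± 0.13. Without the subcutaneous sample 4 of 10 were higher and 0 lower, since ITGB2 (-0.01 ± 0.04), C1QB (0.87 ± 0.18) and C1QC (0.62 ± 0.09) did not pass.

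In mammary gland against adipose tissue 8 of the 10 were lower and 1 higher (median -1.57). C1R stood at -1.53 ± 0.38, C1S at -1.62 ± 0.14 and C2 at -1.44 ± 0.20, in the direction in which C4A and SERPING1 lay without passing. CD59 was higher in mammary gland at 1.81 ± 0.30. Without the subcutaneous sample ITGB2 (-0.60 ± 0.21) was no longer among the lower genes, which left 7. In subcutaneous against visceral adipose tissue, where C4A was lower, the C1q chain gene C1QC was lower too (-1.38 ± 0.34), while C1QB (-0.85 ± 0.15) and C1QA (-0.68 ± 0.11) did not pass. C1R stood at -0.52 ± 0.02, C1S at 0.33 ± 0.12 and C2 at -0.02 ± 0.07, none of them past the rule. In that comparison ITGB2 (3.26 ± 0.26) and CFP (1.86 ± 0.08), the gene of properdin, were higher. In mesenteric against omental adipose tissue 0 of the 10 passed, and C2 stood at 0.90 ± 0.15.

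**Figure D4:**
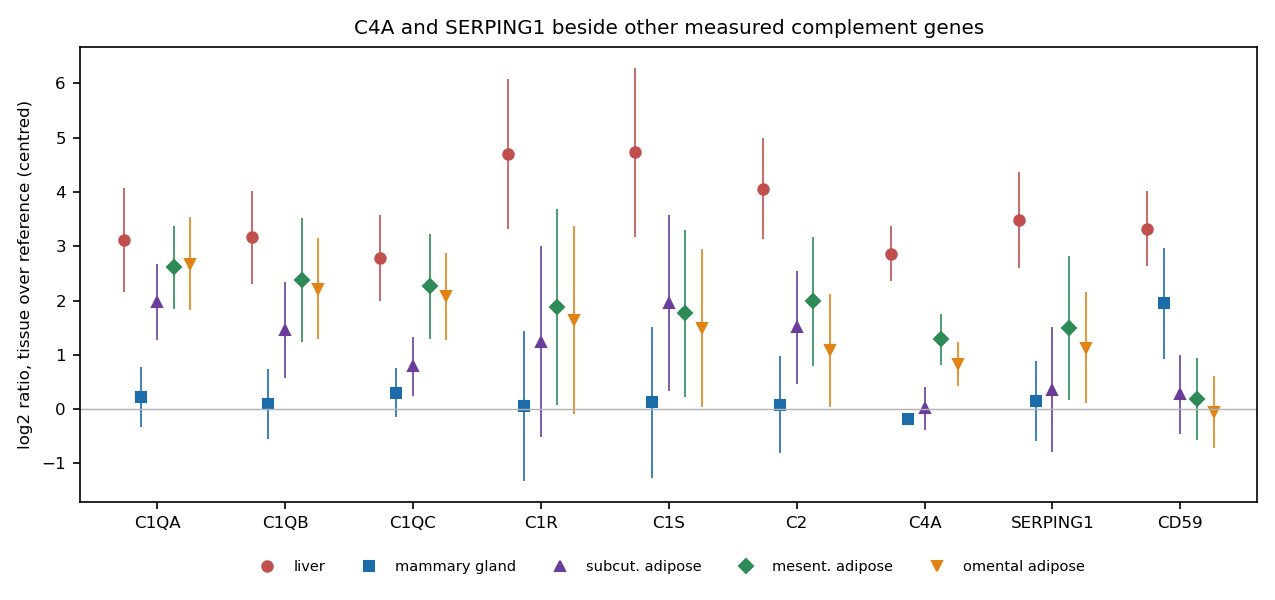
Log2 ratio of tissue over reference (vertical axis, centred) for C4A, SERPING1 and 7 other complement genes. Symbols are means of both arrays of a tissue and lines span the dye orientations. For all genes shown except CD59 liver is highest and mammary gland lowest in the mean. CD59 is highest in liver and second highest in mammary gland. CFD, CFP and ITGB2 were also measured and are not shown. In the mean they were highest in subcutaneous adipose tissue (-0.12, 3.24 and 3.37, in that order) and lowest in mammary gland.

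Of the 46 other plasma proteins listed, none had a value among the named elements, so RBP4, TF and APOA1 cannot be set beside albumin or transthyretin here. The other serpins measured were 2 of 37, the intracellular SERPINB1 and the neural SERPINI1, and neither passed in the 5 comparisons. Against mammary gland they stood in liver at -0.53 ± 0.09 and -0.38 ± 0.15. The high liver values of the 3 serpin genes described above were thus not shared by these relatives.

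Among 9 measured genes of retinoid handling, 2 were higher in liver than in mammary gland and 0 lower (median 0.06). RARRES2, which encodes the adipokine and chemoattractant chemerin, stood at 3.79 ± 0.11, and the carotenoid-cleaving enzyme gene BCO2 at 1.16 ± 0.29. Against adipose tissue RARRES2 (2.91 ± 0.41) and the retinal reductase gene RDH11 (1.55 ± 0.18) were higher in liver. RDH11 was also higher in mammary gland than in adipose tissue, at 2.21 ± 0.08, and RARRES2 passed there as lower without the subcutaneous sample (-1.12 ± 0.55). STRA6, the cell surface receptor for RBP4, stood at -0.42 ± 0.02 in liver against mammary gland and -0.10 ± 0.03 against adipose tissue, and passed in none of the 5 comparisons. DHRS9 was the 1 retinoid gene of 9 that passed in subcutaneous against visceral adipose tissue (1.67 ± 0.02).

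Of 13 measured genes of iron handling, 3 were higher in liver than in mammary gland (median 0.19). SLC40A1 (ferroportin), which exports iron from cells, stood at 2.80 ± 0.17, ISCU, a scaffold for iron-sulphur clusters, at 1.36 ± 0.08 and HMOX1, which frees iron from haem, at 1.02 ± 0.47. Against adipose tissue SLC40A1 stood at 0.82 ± 0.01 and did not pass, while the transporter gene SLC39A8 did at 1.01 ± 0.10, but not without the subcutaneous sample (0.90 ± 0.09). In mammary gland against adipose tissue SLC40A1 (-1.99 ± 0.17) and ISCU (-1.52 ± 0.06) were lower and SLC39A8 higher (1.86 ± 0.08), and NCOA4, the ferritin-degradation receptor gene, passed as higher without the subcutaneous sample (1.09 ± 0.11). HMOX1 was higher in subcutaneous than in visceral adipose tissue, at 1.55 ± 0.06. The ferritin heavy chain gene FTH1 did not pass in any of the 5 comparisons (-0.27 to 0.48).

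Of the genes of high-density lipoprotein metabolism 3 of 28 were measured. ABCA1, which loads lipid onto APOA1, was higher in liver than in mammary gland at 1.41 ± 0.10 and lower in mammary gland than in adipose tissue at -1.73 ± 0.14, as the mean of 4 elements. Between subcutaneous and visceral adipose tissue, where APOA1 differed by 1.64, ABCA1 stood at -0.08 ± 0.00. SCARB1, the receptor that takes up its lipid, passed in none of the 5 comparisons (0.95 ± 0.73 in liver against mammary gland).

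Several plasma serpins act on proteases of clotting and fibrinolysis, and 8 of 33 listed genes of these systems were measured. PROS1 (protein S) was higher in liver than in mammary gland at 2.00 ± 0.12, as were VKORC1, which recycles vitamin K, at 2.51 ± 0.26 and LMAN1, which carries clotting factors out of the endoplasmic reticulum, at 1.54 ± 0.41. Against adipose tissue 4 of 8 were higher in liver, VKORC1 at 2.37 ± 0.02, PROS1 at 2.20 ± 0.37, LMAN1 at 2.04 ± 0.12 and its partner MCFD2 at 1.75 ± 0.06. TFPI, the inhibitor of the tissue factor pathway, was lower at -1.47 ± 0.25. PLAU (urokinase) was lower in mammary gland than in adipose tissue (-1.28 ± 0.09), though not without the subcutaneous sample (-0.50 ± 0.01), and higher in subcutaneous than in visceral adipose tissue (2.34 ± 0.23).

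The genes nearest to each of the 7 over the 10 arrays were found by the root mean square distance of profiles centred on the gene's mean, among 4307 genes. The profiles keep the gap between dye orientations, so near genes are alike in that gap as well as in tissue pattern. C4A and SERPING1, correlated at 0.996 over tissues but with gaps of 0.74 and 2.04, lay 0.68 apart. Neither was among the other's 3 nearest genes. TF and LOC338050 lay 0.72 log2 units from each other and were among each other's 3 nearest genes, and the bile acid transporter gene SLC10A1 was nearest to both (0.66 from TF, 0.54 from LOC338050). The other near genes were AOX1 for TF (0.69) and GAMT, which makes creatine, for LOC338050 (0.72). Nearest to RBP4 were LOC515150 (0.71), CAT, the gene of catalase (0.96), and LOC327709 (1.14). Nearest to C4A were IGFBP4 (0.22), TNKS1BP1 (0.31) and MLXIPL (0.32), and nearest to SERPING1 were COLGALT2 (0.41), RARRES2 (0.46) and ACADS (0.46). SERPINA3-3 had HAVCR1 (0.53), UNC13D (0.63) and LOC616364 (1.11) nearest. Nearest to APOA1 were IL1RN, the gene of the interleukin-1 receptor antagonist (0.19), GUSB, a lysosomal glucuronidase gene (0.25), and HMOX1 (0.27). These distances describe 5 samples, and the genes share arrays and the reference.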

How the data were processed

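The deposited table holds the authors' log2 ratios of the dyes of each array, per the labels' dye fields; the base was read from a ceiling of 16.61, the log2 of 100000. Slides were scanned with a dual-laser confocal scanner and read with GenePix, per the series' design text; no source used here names a background correction or normalisation. The 94 values at the ceiling were taken as missing, leaving 15970 to 16245 of 16416 spots per array. The number of arrays limits the precision. Values of Cy3-labelled tissues had the sign turned, each array was centred on its median, and duplicate spots and elements of a gene were averaged.

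Annotation entries were joined to the table, 48 blocks of 171 elements, through 384-well plates. Of 36864 pairings of layouts, the best gave clones of a gene a mean cosine of 0.46 over 1268 pairs, against 0.13 for the next and 0.01 at face value. A search on part of the genes found the same layout (0.45 on 626 pairs left out of it). Names on 20 plates were kept: 5472 elements, 5467 matched by Entrez identifier in the RefSeq table of ARS-UCD2.0. Of the annotation's identifiers 10884 had 1 symbol, 186 several and 5346 none. No coordinates are given.

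The genes named are the 7, the 3 nearest to each, and from each gene list those past the size rule, up to the 4 largest each way, with direct partners of the 7. Members and lists were chosen with earlier results of these data known. The search and the size rule were tested on simulated data. Python 3.11.15, numpy 2.4.6 and pandas 2.3.3 were used. Alternatives were no centring, quantile normalisation, either orientation left out, ceiling values kept, spot medians, subcutaneous adipose tissue left out, a layout search without the 7 genes, and the omental array with conflicting dye labels left out.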

Additional observations from a re-analysis of the deposited data

How the results depend on the processing

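The count of 6 genes higher in liver than in adipose tissue was 6 under every alternative run. Against mammary gland it was 6 to 7 with either orientation left out, APOA1 passing at 1.05 on the arrays of Cy5-labelled tissue, and 6 under the other alternatives. Of 82 counts of the 7 genes under alternatives 8 moved by over 1.5 times. In mammary gland against adipose tissue, leaving out either orientation gave 0 to 1 higher and 1 to 3 lower genes, and leaving out the subcutaneous sample gave 0 higher and 3 lower. In subcutaneous against visceral adipose tissue 1 gene was lower without centring, in place of 3. In mesenteric against omental adipose tissue 0 genes were lower after quantile normalisation and with the Cy5-labelled omental sample left out, and 0 to 1 with either orientation left out. The cause was not tested. Leaving out the subcutaneous sample for the gene lists was chosen after seeing the data. Of 287 single differences 243 moved by less than 1 SD of the orientations, 44 by more, and 10 changed sign, all of differences that had not passed the size rule. The 243 are no measure of stability, since much of this was fixed in advance. Leaving out 1 orientation moves a mean by less than 1 SD of the orientations whatever the values are. With 1 element of 2 spots per gene, the spot median equals the mean, and no spot of the 7 genes stood at the ceiling. The layout search without the 7 genes gave the same layout, since each has 1 element. No paired analysis was possible because the labels give the arrays no replicate numbers and each tissue is 1 sample. Low ratios are limited by signal over background, which was not analysed here.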
